A study of Mus musculus with 16 samples.

Results

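The endoplasmic reticulum (ER) stress and folding genes are a set of 10 genes, Ddit3, Atf4, Xbp1, Edem1, Edem2, Herpud1, Calr, Canx, Pdia4 and Sel1l, followed here in the lumbar spinal cord of SOD1G93A and wild-type mice. Their probes were taken from the arrays by gene name. Of the 10 genes, 9 were listed under these names, with 15 probes, and Sel1l was found under its older symbol Sel1h, with 3 more probes, so that 18 of the 41174 probes of the array belong to the set. Of these 18 probes, 15 were bright enough to be tested, and every one of the 10 genes has at least 1 tested probe. The other 3 probes, 1 each for Edem1, Edem2 and Sel1l, were not well above background in the spinal cord channel on 3 of the 4 arrays of any group, and no difference is given for them.

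The study compared SOD1G93A mice, a model of amyotrophic lateral sclerosis that carries a mutant human SOD1 gene, with non-transgenic wild-type controls of the same age, at 40 and 80 days, ages it describes as preclinical. All mice were males of a mixed B6SJL background. There were 4 groups of 4 arrays each: wild-type at 40 days, SOD1G93A at 40 days, wild-type at 80 days and SOD1G93A at 80 days. Each array carried Cy3-labeled cRNA of a spinal cord sample and Cy5-labeled cRNA of 1 common reference, a pool of neonatal heart, kidney and liver RNA, with the dyes in the same orientation on all 16 arrays. The transgene is present in many copies and is active in many cell types, and its human transcript was not measured here. Whole lumbar cord mixes all its cell types, so that fewer cells of a type and less RNA per cell cannot be told apart. Values are log2 ratios of Cy3 to Cy5 after background correction and loess centring of each array, and a difference of 1 on this scale is a doubling. A difference was called where limma's moderated test gave a two-sided p under 0.05 before adjustment, the threshold of the study's methods, and exact permutation tests of 4 arrays against 4 and p-values adjusted over the array by Benjamini-Hochberg are given beside the calls.

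The ER folds secreted and membrane proteins with the help of lectin chaperones, Hsp70-type chaperones and disulfide isomerases. When unfolded protein builds up, the sensors IRE1, PERK and ATF6 start the unfolded protein response, which works through the transcription factors XBP1, ATF4 and cleaved ATF6 and raises chaperones and the machinery of ER-associated degradation (ERAD). ERAD selects misfolded glycoproteins by trimming their mannose residues and passes them through a membrane ubiquitin ligase complex to the proteasome. Motor neurons are long secretory cells in which this response has often been studied in mutant SOD1 mice.

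Sequence elements of this response were looked for in the RefSeq promoters (GRCm38.p6, 250 bases before to 50 after the gene's start, both strands), in which all 10 genes have an entry. The ER stress element ERSE, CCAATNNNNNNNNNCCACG, was present in the promoters of Calr and Canx and in 0.119% of all 32851 promoters. The related ERSE-II, ATTGGNCCACG, was present in Herpud1 and in 0.0365% of all promoters. The amino acid response element CARE, TGATGNAA, was also present in Herpud1 and in 3.97% of all promoters. The XBP1 element UPRE, TGACGTGG, which shares the letters CCACG on its other strand with both ERSE forms, was in none of the 10 windows and in 0.676% of all promoters. The windows around the 3 rarer matches are printed because they are the textbook target letters of ATF6 and XBP1 in genes whose levels are given here, with the fixed letters of the match in capitals, in the direction of the gene.
Calr, chr8:84847055-84847113, minus strand, ERSE on the opposite strand: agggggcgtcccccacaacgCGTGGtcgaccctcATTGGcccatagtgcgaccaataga
Canx, chr11:50325780-50325838, minus strand, ERSE: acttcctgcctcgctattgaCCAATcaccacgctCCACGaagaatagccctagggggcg
Herpud1, chr8:94386357-94386407, plus strand, ERSE-II: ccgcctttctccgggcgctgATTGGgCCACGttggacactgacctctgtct

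A match of letters describes these windows and does not show a bound site.

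The 3 probes on which the comparisons turn are 60 bases long, and their first 30 bases are shown because 2 probes of Sel1l gave opposite differences. The files place them on the mm7 build, all on the minus strand, Edem2 at chr2:155449800-155449859, the first Sel1l probe at chr12:89289200-89289245 and the second at chr12:89289680-89289739. The deposited coordinates of the first Sel1l probe span fewer bases than the probe holds.
Edem2 probe A_52_P317040: ctgccagaattctacaacattcctcaggga
Sel1l probe A_51_P155675: cattaagtcaaagcaaacaagccaagcagg
Sel1l probe A_52_P194242: gcctcagatacgagagaaactatttctgga

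Between 46.1% and 55.3% of probes were well above background in Cy3, and the log2 ratios of any 2 arrays correlated at 0.970 or above over the probes tested. Slide 1 held replicate 1 of every group, slide 2 replicate 2, and so on, while each group always had the same position on its slide, so that position and group cannot be told apart. Some local backgrounds had been recorded far above the signal of their own spot, 63 of them in Cy3 on SOD1G93A 80 days replicate 4 and 72 in Cy3 on all 16 arrays, and these were set to the array's median background. Markers of astrocytes, oligodendrocytes and neurons were well above background on all 16 arrays, 7 of 7 genes in each list, while Chat, a defining marker of motor neurons, was too dim to be tested.

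At 40 days no probe of the set was called between the genotypes. Of the 15 probes tested, 0 were called by limma, beside 4.51% of all 21338 probes tested at that age, and 0 of 15 had groups that did not overlap, beside 2.83% of all probes. After Benjamini-Hochberg adjustment over the array no probe of any gene was called at 40 days. The 15 differences, SOD1G93A minus wild-type, ran from -0.11 (Calr, probe A_51_P416419) to 0.07 (Atf4), 14 of them under 0.1 in size, with a median of -0.03 beside 0.003 over all probes. The standard errors ran from 0.05 (Canx, probe A_52_P496596) to 0.11 (Xbp1), and over the 15 probes the 95% intervals reached at most down to -0.29 (Calr, probe A_51_P416419) and up to 0.27 (Xbp1).

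At 80 days 2 of the 15 probes were higher in SOD1G93A cord and none was lower, beside 6.86% of all 21603 probes called, 796 of them higher and 686 lower. They were the probe of Edem2, an ER lectin-like protein of the mannosidase family that feeds glycoproteins into ERAD, and 1 of the 2 probes of Sel1l, the adaptor of the HRD1 ubiquitin ligase in the same route. These 2 were also the only ones of the 15 whose groups did not overlap, beside 4.3% of all probes. Neither passed Benjamini-Hochberg adjustment, which no probe on the array did at either age. The median difference of the 15 probes was -0.01, beside -0.002 over all probes. The study's own genes up regulated at 80 days, found on these same arrays, include Edem2 and Sel1l. The members were chosen with earlier results of these data known. The counts of called and of non-overlapping probes are therefore not independent of that choice.

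**Figure D1:**
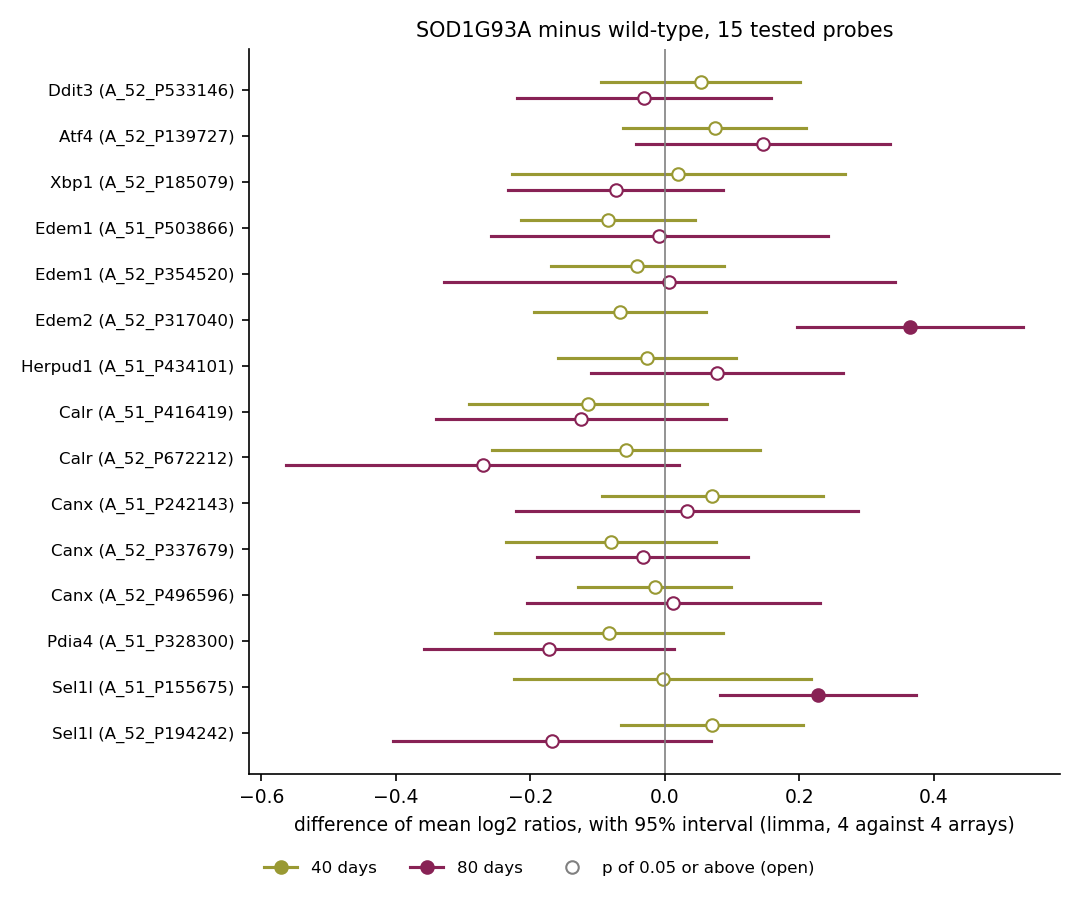
Difference between SOD1G93A and wild-type cord in log2 ratio (horizontal axis, with 95% intervals from limma) for each of the 15 tested probes at 40 and at 80 days, 4 arrays per group; filled points have an unadjusted p under 0.05. All intervals at 40 days cross 0, and at 80 days those of Edem2 (0.37) and of Sel1l probe A_51_P155675 (0.23) do not.

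The log2 ratio of Edem2 was 0.33, 0.10, 0.15 and 0.07 on the wild-type arrays of 80 days and 0.43, 0.50, 0.55 and 0.64 on the SOD1G93A arrays, in the order of replicates 1 to 4. Every SOD1G93A value lay above every wild-type value, and the wild-type array of slide 1 was the closest to them. The mean difference was 0.37 with a standard error of 0.08, a fold of 1.29 (limma p = 0.000649, adjusted p = 0.658; exact permutation p = 0.0286, the smallest that 4 arrays against 4 can give). On each of the 4 slides the SOD1G93A array was the higher of the pair, by 0.10, 0.40, 0.40 and 0.56, and with the slide as a replicate block Edem2 was still called (limma adjusted p = 0.611). Edem2 was a dim probe in the spinal cord channel, with raw Cy3 signals of 70 to 90 units in wild-type and 91 to 109 in SOD1G93A arrays of 80 days over local backgrounds of 35 to 39 on all 16 arrays.

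The ratio of Edem2 draws on both channels. In the Cy3 channel alone, normalized by quantiles, SOD1G93A arrays were higher by 0.20, a call (limma adjusted p = 0.932), while the Cy5 channel, which holds the same reference on every array, differed by -0.14 on those arrays without a call (limma adjusted p = 1.00). The raw Cy5 signals of Edem2 were 343 to 435.5 units on SOD1G93A arrays and 373.5 to 544 on wild-type arrays of 80 days, and these ranges overlap. For the Sel1l probe A_51_P155675 the Cy3 channel alone differed by 0.17, a call (limma adjusted p = 0.932), and the Cy5 channel by 0.01 (adjusted p = 1.00).

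**Figure D2:**
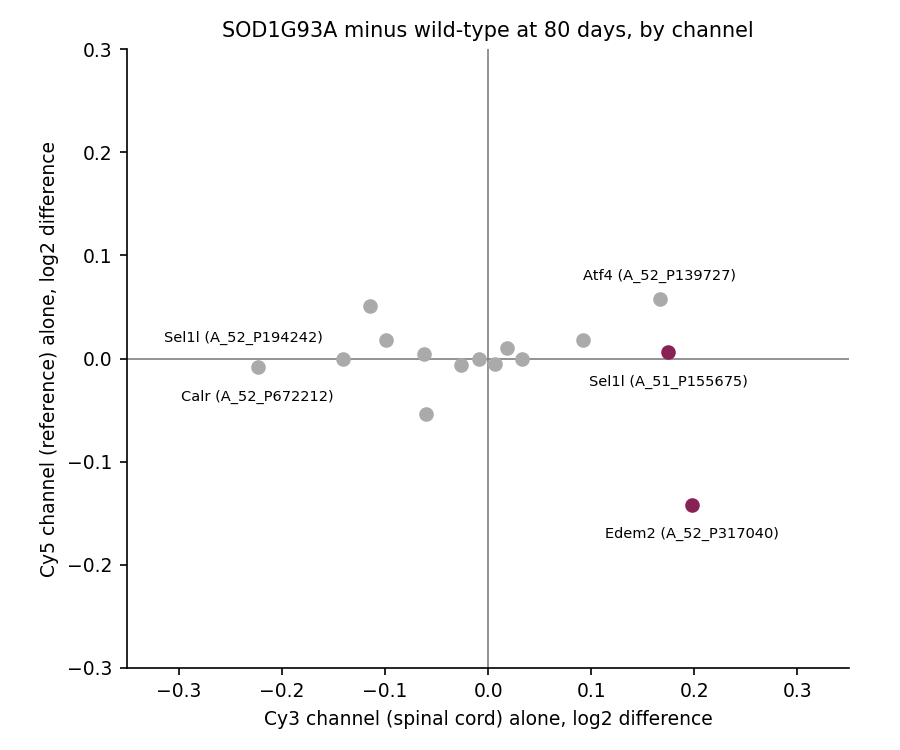
Difference between SOD1G93A and wild-type arrays of 80 days in the spinal cord channel (Cy3, horizontal, log2) and in the common reference channel (Cy5, vertical, log2), 1 point for each of the 15 tested probes; coloured points are those called in the ratio. Edem2 lies at 0.20 in Cy3 and -0.14 in Cy5, and Sel1l probe A_51_P155675 at 0.17 and 0.01.

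The genotype difference of Edem2 was called as unlike between the ages, before adjustment. At 40 days its log2 ratio was 0.33, 0.20, 0.26 and 0.42 on wild-type arrays and 0.23, 0.23, 0.25 and 0.24 on SOD1G93A arrays, with groups that overlap and a difference of -0.07 ± 0.06 (SE; exact permutation p = 0.286). The difference at 80 days minus that at 40 days was 0.43 with a standard error of 0.09 (limma p = 0.000253, adjusted p = 0.502), and an exact permutation test that relabels arrays within each age gave p = 0.00408. Edem2 was the only 1 of the 15 probes called in this comparison, beside 6.72% of all 21953 probes.

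Sel1l gave different answers at its 2 tested probes. Probe A_51_P155675 read 0.19, 0.11, 0.21 and 0.24 in wild-type and 0.37, 0.38, 0.56 and 0.35 in SOD1G93A cord at 80 days, with no overlap. Its difference was 0.23 ± 0.07 (SE), a fold of 1.17 (limma p = 0.00573, adjusted p = 0.658; exact permutation p = 0.0286), and the SOD1G93A array was higher on 4 of 4 slides. Probe A_52_P194242, the main probe of the gene by its intensity, read 0.72, 0.72, 0.34 and 0.88 in wild-type and 0.57, 0.53, 0.37 and 0.51 in SOD1G93A cord at 80 days. Those groups overlap, and the difference of -0.17 ± 0.11 (SE) was not called (limma adjusted p = 0.770; exact permutation p = 0.257). The files list the 2 probes under different transcripts of Sel1l, and which transcripts each one binds was not tested. At 40 days neither probe was called, with differences of -0.003 and 0.07. Probe A_51_P155675 was also dim in the spinal cord channel, over local backgrounds of 33 to 40. Its raw Cy3 signals at 80 days were 82 to 92 units in wild-type and 97 to 108.5 in SOD1G93A arrays. Those of probe A_52_P194242 were 151.5 to 229 and 167.5 to 200.

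**Figure D3:**
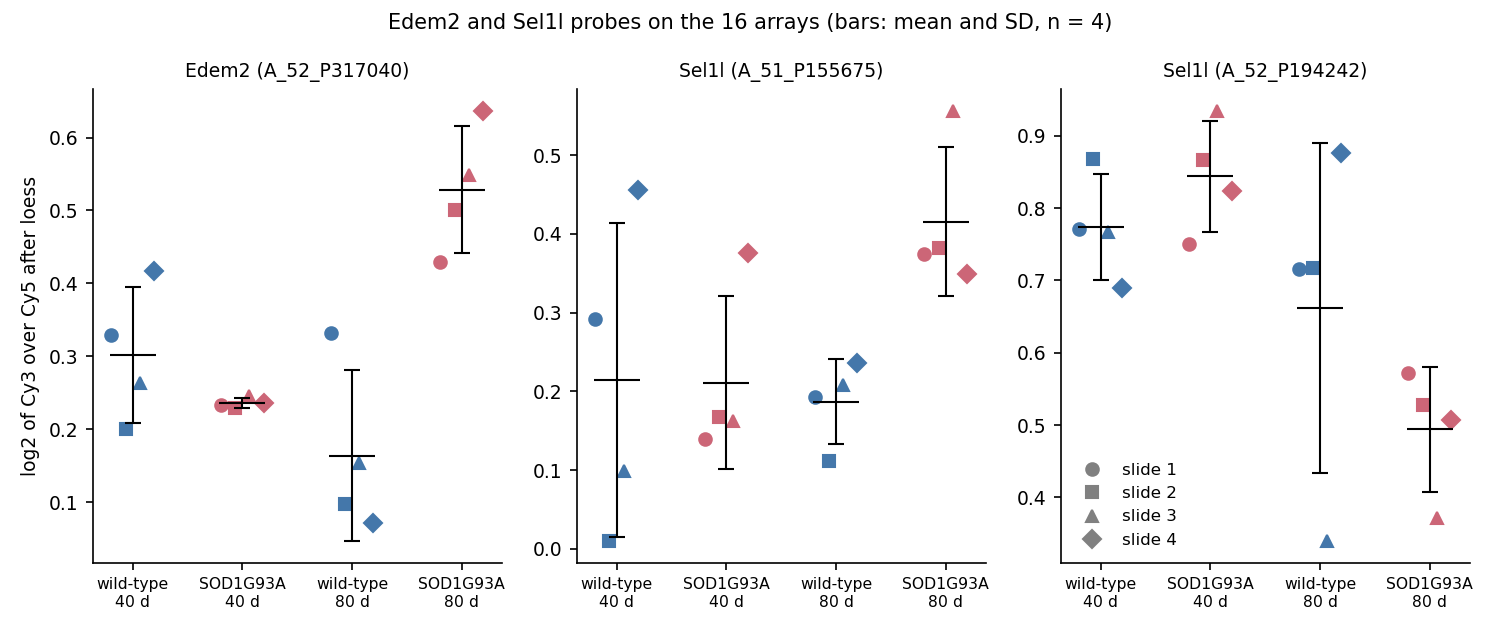
Log2 ratio of Cy3 to Cy5 on each of the 16 arrays for the Edem2 probe and both Sel1l probes, by group (4 arrays each) with the mean and SD as black bars and the slide as the shape of the point; the vertical axes differ. At 80 days the SOD1G93A arrays lie above all wild-type arrays for Edem2 and for Sel1l probe A_51_P155675, and within their range for Sel1l probe A_52_P194242.

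Markers of cell types were also called by limma, beside 3.99% of all genes at 40 days, 6.45% at 80 days and 5.90% for the difference between the ages. At 40 days 3 of 7 astrocyte markers and 3 of 7 oligodendrocyte markers were higher in SOD1G93A cord, with list medians of 0.19 and 0.16. At 80 days, of 7 astrocyte markers 1 was lower (Slc1a2, -0.27, exact permutation p = 0.0571), of 7 oligodendrocyte markers 2 were higher (Mog, 0.27, p = 0.0857 and Cnp, 0.24, p = 0.0571), and of 7 neuronal markers 1 was lower (Syt1, -0.33, p = 0.114). The 7 oligodendrocyte markers were not all of one sign, 4 of them above 0, from -0.15 to 0.27. Of the 7 astrocyte markers 2 were above 0, and over their 14 probes 1 was called as higher and 1 as lower. Of the 7 neuronal markers 0 were above 0, from -0.33 to -0.01, beside 6 of 7 above 0 at 40 days. For the difference between the ages, in which Edem2 was called, 3 of 7 astrocyte markers were lower (median of the list -0.33), 1 of 7 oligodendrocyte and 1 of 7 neuronal markers were lower, and 1 of 5 motor neuron markers was higher. In the lists of microglia, motor neurons, Schwann cells, meningeal fibroblasts, endothelial cells, erythrocytes and skeletal muscle no gene was called between the genotypes at either age. However, at 40 days the list medians were -0.96 for Schwann cells, -0.75 for meningeal fibroblasts and 0.82 for skeletal muscle. For the difference between the ages the medians of these lists were 0.82, 0.71 and -0.32, without a call. The mean deviation of the 7 oligodendrocyte markers ran from -0.33 to -0.01 over the wild-type arrays and from -0.20 to -0.06 over the SOD1G93A arrays of 80 days, and that of the 7 neuronal markers from -0.08 to 0.22 and from -0.19 to 0.08. For the astrocyte list the ranges were -0.08 to 0.16 in wild-type and -0.22 to 0.11 in SOD1G93A arrays. These ranges overlap between the genotypes. The part of these markers in the results of Edem2 and Sel1l was not tested.

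The transcription factors of the response were not called between the genotypes at either age. Ddit3, which encodes CHOP, the factor downstream of PERK that is tied to cell death, had group means of 0.91 in wild-type and 0.96 in SOD1G93A cord at 40 days and of 1.11 and 1.08 at 80 days. Its differences were 0.05 (95% interval -0.10 to 0.20) and -0.03 (-0.22 to 0.16). Atf4, translated when PERK phosphorylates its target eIF2 alpha, differed by 0.07 at 40 days and 0.15 at 80 days (exact permutation p = 0.143 and 0.171), with the SOD1G93A array the higher on 4 of 4 slides at 80 days, by 2.96e-05 to 0.39. Xbp1, whose mRNA is spliced by IRE1, differed by 0.02 and -0.07 (limma adjusted p = 0.997 and 0.841), and these probes count transcripts and not their splicing or translation.

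The lectin chaperones and the disulfide isomerase were not called between the genotypes either. The 2 probes of Calr, the soluble lectin chaperone calreticulin, differed by -0.13 and -0.27 at 80 days (limma adjusted p = 0.798 and 0.734; exact permutation p = 0.257 and 0.229). The second of them, A_52_P672212, read 0.41, 0.84, 0.24 and 0.78 in wild-type and 0.18, 0.26, 0.26 and 0.48 in SOD1G93A cord, with overlap. Pdia4, a protein disulfide isomerase of the ER, read -0.44, -0.50, -0.52 and -0.26 in wild-type and -0.59, -0.59, -0.76 and -0.45 in SOD1G93A cord at 80 days. Its groups overlap by 2 wild-type values below the highest SOD1G93A value, and its difference was -0.17 ± 0.08 (SE; limma adjusted p = 0.734, exact permutation p = 0.0857). The SOD1G93A array of Pdia4 was the lower on 4 of 4 slides, and with the slide as a replicate block Pdia4 (limma adjusted p = 0.623) and Calr probe A_52_P672212 (adjusted p = 0.624) were called as lower, which gave 4 called probes of 15 in place of 2. The 3 probes of Canx, the membrane-bound partner calnexin, differed by -0.03 to 0.03 at 80 days, 1 of them, A_52_P337679, with 3 wild-type arrays because an outlier spot was left out. The raw Cy3 signals of that probe at 80 days ran from 1101 to 3857.5 units on wild-type arrays and from 2853 to 3521.5 on SOD1G93A arrays. The wild-type range includes the array whose spot was left out of the test. In the authors' series matrix that probe differed by 0.35 instead, without a call, and the cause was not tested.

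Of the other ERAD members, Edem1, a relative of Edem2, differed by -0.08 and -0.04 at its 2 probes at 40 days and by -0.01 and 0.01 at 80 days. The intervals of Edem1 at 80 days were wide, up to -0.33 to 0.34 for probe A_52_P354520. Herpud1, a membrane protein of the ERAD complex and a strong target of the response, differed by -0.03 at 40 days and 0.08 at 80 days (exact permutation p = 0.657 and 0.4).

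Between 40 and 80 days members were called in both genotypes, in 1 fit of all 16 arrays. In wild-type cord 3 of 15 probes were called, beside 15.2% of all 21953 probes. Ddit3 was higher at 80 days by 0.20 (exact permutation p = 0.0571), while Edem1 probe A_51_P503866 and Edem2 were lower, with differences of -0.20 (p = 0.0857) and -0.14 (p = 0.143). The limma adjusted p-values of these 3 were 0.221 to 0.329, their groups overlap, and between 0 and 5 probes were called when 1 array was left out. In Cy3 alone Edem1 probe A_51_P503866 differed by -0.21, a call. Ddit3 differed by 0.14 and Edem2 by -0.05 in Cy3, without a call. In Cy5, the common reference, Edem1 probe A_51_P503866 differed by -0.05, Ddit3 by -0.04 and Edem2 by 0.10, without a call. With the slide as a replicate block Ddit3 was the only probe called (limma adjusted p = 0.238).

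In SOD1G93A cord 6 of 15 probes were called, 2 higher and 4 lower at 80 days, beside 16.9% of all 21953 probes, of which 1887 were higher and 1822 lower. Edem2 rose by 0.29 ± 0.07 (SE; exact permutation p = 0.0286), and with the settings used here it was the only member to pass adjustment over the array in any comparison (limma adjusted p = 0.0407, and 0.0649 with the slide as a replicate block). Under the other settings its adjusted p ran from 0.00988 to 0.264, and with array weights Sel1l probe A_52_P194242 (adjusted p = 0.0159) and Pdia4 (0.0389) passed as well. Its values of 0.23 to 0.25 at 40 days and 0.43 to 0.64 at 80 days did not overlap. Sel1l again went both ways, with probe A_51_P155675 higher by 0.20 (exact permutation p = 0.0857) and probe A_52_P194242 lower, at -0.35 (exact permutation p = 0.0286, limma adjusted p = 0.0698). The latter read 0.75 to 0.93 at 40 days and 0.37 to 0.57 at 80 days in SOD1G93A cord. By channel, probe A_51_P155675 differed by 0.04 in Cy3 alone, without a call, and by -0.18 in Cy5, the common reference. Probe A_52_P194242 differed by -0.31 in Cy3, a call, and by -0.02 in Cy5. Edem2 differed by 0.16 in Cy3, a call, and by -0.09 in Cy5.

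The other 3 lower probes in SOD1G93A cord were those of Xbp1, Pdia4 and Calr. Xbp1 differed by -0.27 (exact permutation p = 0.0571), Pdia4 by -0.26 (p = 0.0286) and Calr probe A_52_P672212 by -0.31 (p = 0.0286), with limma adjusted p-values of 0.182, 0.134 and 0.214. In wild-type cord the same probes differed by -0.18, -0.17 and -0.09, none of them called. Whether these age differences are unlike between the genotypes is the comparison given above. There limma called none of these 3 probes (exact permutation with relabelling within each age, p = 0.518, 0.514 and 0.31). The age differences of the 2 genotypes were computed in 1 fit but share no arrays. Markers were called with age as well, beside 15.6% of all genes in wild-type and 17.4% in SOD1G93A cord. At 80 days 3 of 7 oligodendrocyte markers were lower in wild-type and 4 of 7 in SOD1G93A cord. Of 7 astrocyte markers 2 were higher in wild-type, while 1 was higher and 2 were lower in SOD1G93A cord. In wild-type cord 1 neuronal, 1 motor neuron and 1 erythrocyte marker were higher and 1 endothelial marker was lower. In SOD1G93A cord 1 motor neuron and 1 meningeal fibroblast marker were higher. The part of these markers in the age differences was not tested.

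**Figure D4:**
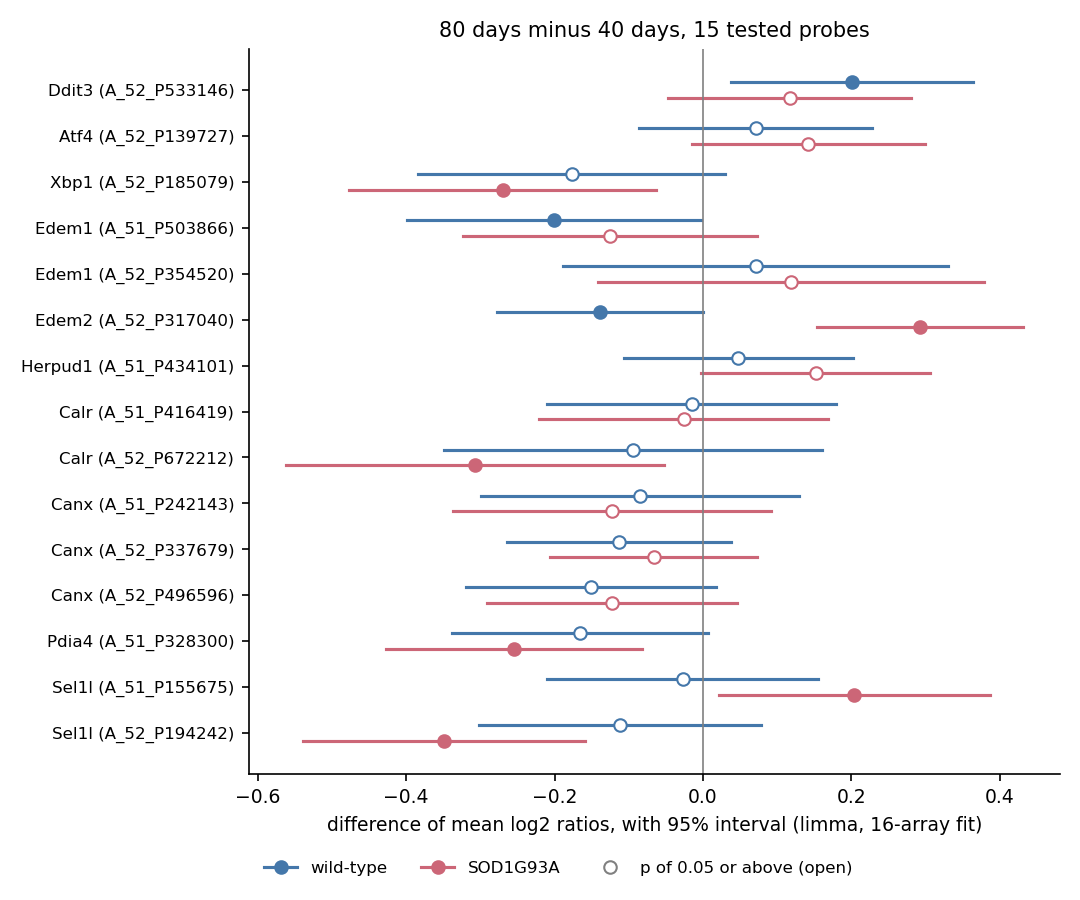
Difference between 80 and 40 days in log2 ratio (horizontal axis, with 95% intervals from limma in a fit of all 16 arrays) for each of the 15 tested probes in wild-type and in SOD1G93A cord; filled points have an unadjusted p under 0.05. Edem2 lies at -0.14 in wild-type and 0.29 in SOD1G93A cord, and the 2 Sel1l probes at 0.20 and -0.35 in SOD1G93A cord.

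The level of the set against the reference varied by gene. On every array measured, 9 of the 15 probes were above 0 and 4 were below 0, namely those of Xbp1, Pdia4 and Edem1. Ddit3 ran from 0.76 to 1.25 over the 16 arrays and Pdia4 from -0.76 to -0.11. These signs are set by the neonatal organ pool and by the centring of each array, and they say nothing of the amount of 1 transcript against another. Within a group the standard deviation of a probe was 0.11 at the median, from 0.007 for Edem2 in SOD1G93A cord at 40 days to 0.29 for Calr probe A_52_P672212 in wild-type cord at 80 days.

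Around the 10 genes, 86 other genes of ER folding and stress were followed in 7 lists, 84 of them with a tested probe at each age, the brightest probe of each gene being used. At 40 days 1 of 84 was called, beside 3.99% of 15167 genes on the array, and at 80 days 5 of 84, 2 higher and 3 lower, beside 6.45% of 15389 genes. The median difference of the 84 genes was -0.02 at 40 days and -0.01 at 80 days, beside -0.002 and -0.005 over all genes. By the brightest probe, of the stress sensors 0 of 6 tested genes were called at either age, and of the Hsp70-family chaperones and partners 0 of 12, of the isomerases 0 of 12 and of the glycan trimming and lectin genes 0 of 8. Counted over all 148 tested probes of the 7 lists at 80 days, 8 were called as higher and 4 as lower, beside 6.86% of all probes. The higher ones were 1 of 11 probes of the stress sensors, 1 of 23 of the Hsp70 family, 1 of 19 of the isomerases, 1 of 17 of the ATF4 and CHOP targets and 4 of 35 of ER-associated degradation, of which 2 belong to Rnf5, and the 4 lower ones were among 29 probes of the translocon and oligosaccharyltransferase list.

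**Figure D5:**
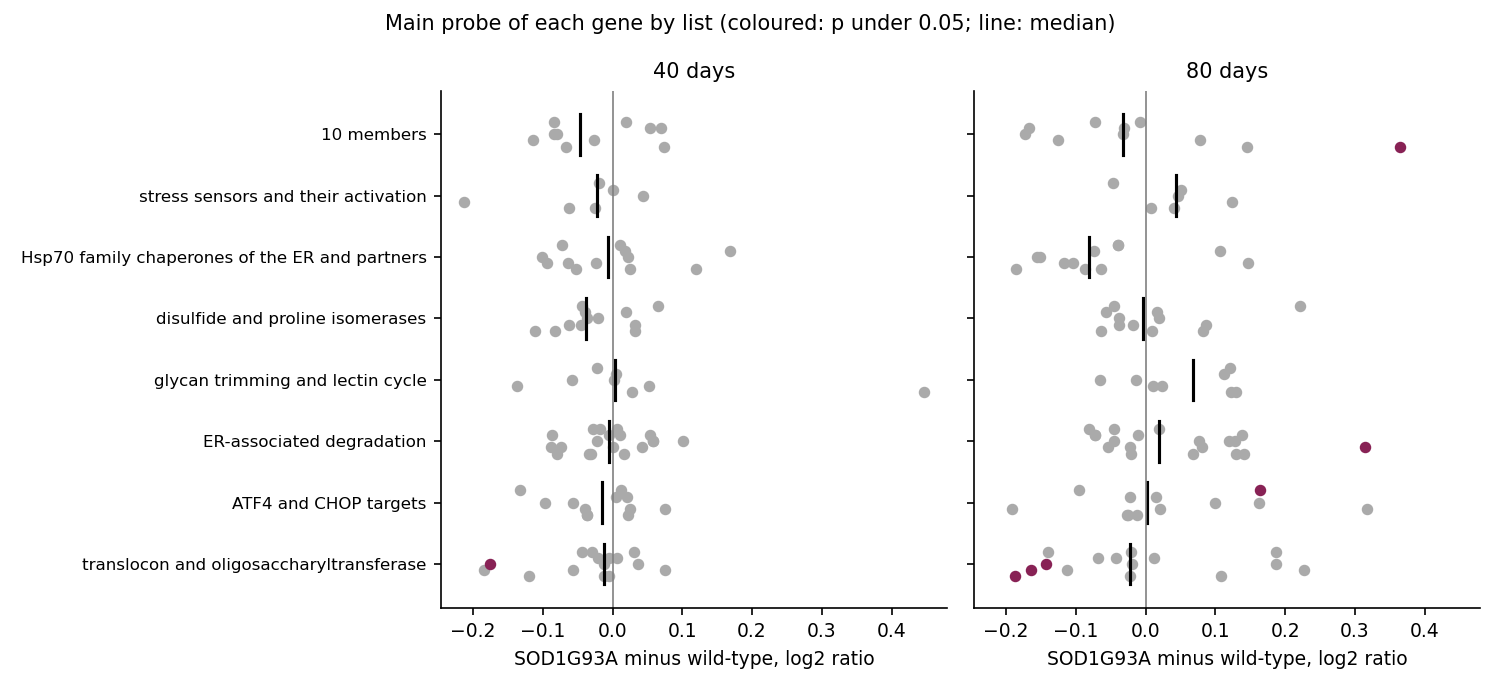
Difference between SOD1G93A and wild-type cord in log2 ratio (horizontal axis) at 40 days (left) and 80 days (right) for the main probe of each of the 10 members and of the other ER genes by list; coloured points have a limma p under 0.05 and black lines are medians. The members' median lies at -0.05 at 40 days and -0.03 at 80 days, and the coloured points at 80 days are Edem2, Rnf5, Cebpg, Dad1, Sec61g and Ssr4.

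In the list of ER-associated degradation 1 of 19 genes was called at 80 days. This was Rnf5, a membrane-anchored ubiquitin ligase of the ER, which read 1.03, 1.08, 0.91 and 1.01 in wild-type and 1.17, 1.33, 1.49 and 1.30 in SOD1G93A cord. The groups did not overlap, and the difference was 0.31 ± 0.08 (SE; limma adjusted p = 0.658, exact permutation p = 0.0286). A second probe of Rnf5 was called as well, at 0.31, while at 40 days the 2 probes differed by 0.04 and 0.03.

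The translocon and oligosaccharyltransferase list held the genes called as lower. At 80 days Dad1, a subunit of the transferase, differed by -0.19 (exact permutation p = 0.0286). Sec61g of the translocon differed by -0.16 (exact permutation p = 0.0571). Ssr4 of the translocon-associated complex differed by -0.14 (exact permutation p = 0.0571). These were 3 of 15 genes, with 0 called as higher, beside 6.45% of all genes called. The list was not lower throughout at 80 days, as 5 of the 15 genes were above 0, up to 0.23. Its median difference was -0.02, beside -0.005 over all genes. The other probe of Ssr4 differed by -0.10 without a call. Sec62, a translocation factor, was the gene called at 40 days (-0.18, exact permutation p = 0.0286), and its other probe differed by 0.16 without a call. Of 12 targets of ATF4 and CHOP, Cebpg, a dimer partner of ATF4, was higher at 80 days (0.16, exact permutation p = 0.0571), while its 2 other probes differed by -0.27 and -0.10 without a call. No gene of these lists passed adjustment over the array between the genotypes.

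Genes with the most similar course to Edem2 over the 16 arrays, among 15473 genes, were Efl1 (Pearson r = 0.90), Strn4 (0.88) and U2af1 (0.85). For Sel1l probe A_51_P155675 they were Ppp1r9b (0.90), Kif3c (0.89) and Eef2 (0.89), and for Pdia4 they were Selenok (0.94), D230004J03Rik (0.91) and Dnajb12 (0.91). All these values share arrays, reference and centring, and they are given as a description.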

How the data were processed

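Agilent 4 x 44K whole mouse genome arrays were hybridized, scanned and read by the authors with Feature Extraction 9.5.3.1. The deposited array files hold intensity values of each spot in both channels with local backgrounds and no normalization. The deposited series matrix holds log2 values by the authors that follow the Cy3 channel alone. Log2 ratios of Cy3 to Cy5 were formed here from the median signals, in limma (version 3.58.1, under R 4.3.3). Local backgrounds over 20 units above their own spot's signal were set to the array median, followed by normexp with an offset of 50 and loess within arrays. Controls had weight 0, outlier spots were left out and spots of a probe were averaged. An offset draws the ratios of dim probes together, so their differences appear smaller.

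A probe was tested with Cy3 well above background on at least 3 of 4 arrays of 1 group and values on at least 2 arrays of each group. Genotypes were fitted on the 8 arrays of an age, ages and the difference between ages on all 16, with lmFit and eBayes over all probes, Benjamini-Hochberg adjustment and exact permutation tests. The study's methods state that 5 animals per group were used for arrays. Arrays of insufficient quality were removed, and 4 samples per group were analysed. The labels do not say whether samples were separate animals, so p-values measure the spread between arrays. No depth exists for arrays; their number limits the precision. Of 41174 probes, 22951 were named through RefSeq accessions and others by the file. The main probe of a gene is its brightest tested probe. All members are named; values of each array are given for members called between genotypes and some others, other pathway genes where their main probe had a p under 0.05 between genotypes, up to 5 per list, and the 3 most similar genes for 3 members. Rnf5's values and the second probes of named genes were added after their values were seen. The members and lists were chosen with earlier results of these data known. The replicate numbers follow the slides, read from the array files; deviations of arrays of the same number and age correlated at -0.06 to 0.20 between genotypes. Scripts were tested on simulated data. Plots come from Python 3.11.15 and its package matplotlib 3.10.9.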

Additional observations from a re-analysis of the deposited data

Results flagged for a closer look

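Of 59 groups of 4 arrays checked over the 15 probes, 3 held a value far from the other 3, about as many as chance gives at 1 in 20. Sel1l probe A_51_P155675 read 0.38 on SOD1G93A 40 days replicate 4, beside 0.14 to 0.17 on the others, and 0.56 on SOD1G93A 80 days replicate 3, beside 0.35 to 0.38. Edem1 probe A_51_P503866 read -0.68 on wild-type 80 days replicate 1, beside -0.37 to -0.31. The genotype difference of Edem2 at 80 days minus that at 40 days was 0.43, and the limma test of it passed the threshold before adjustment (adjusted p = 0.502). The exact permutation test, whose null is no genotype difference at either age, gave p = 0.00408.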

How the results depend on the processing

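Edem2 and Sel1l probe A_51_P155675 were called between genotypes at 80 days under all 15 other settings (differences of 0.18 to 0.47 and 0.17 to 0.33; adjusted p of 0.348 to 0.932) and without each of the 8 arrays in turn (0.33 to 0.42 and 0.18 to 0.25). The difference of Edem2 between the ages was called under all 14 other settings (0.19 to 0.54) and without each of 16 arrays (0.39 to 0.49). The larger changes in the count of called probes of the set were as follows. At 40 days, 0 became 1 with processed signals (Ddit3), with median centring (Sel1l) and with the series matrix (Calr). At 80 days, 2 became 4 with the spread from 16 arrays, 5 with array weights and 4 with the replicate block. Over the 15 other settings Calr probe A_52_P672212 was called as lower in 4, Pdia4 in 3 and Sel1l probe A_52_P194242 in 1. For the difference between ages, 1 became 2 with median centring and 3 with array weights. For the age difference in wild-type, 3 became 1 with local backgrounds as found and 1 with the replicate block. The count ran from 1 to 4 over the 13 other settings. Edem2 was called as lower in only 5 of these 13, Ddit3 as higher in 10 and Edem1 probe A_51_P503866 as lower in 11. Without 1 array the same 3 probes were called in 4, 14 and 5 of 16 fits. The replicate block gave 0 at 40 days, 1 for the difference between ages and 7 for the age difference in SOD1G93A. In SOD1G93A the count with age was 4 to 7 under the 13 other settings, where Edem2, Pdia4 and Sel1l probe A_52_P194242 were called in all 13, while the calls were lost in 3 of 13 for Sel1l probe A_51_P155675 (lowest difference 0.04, in Cy3 alone), in 4 for Xbp1 and in 2 for Calr. Leaving out 1 array gave 0 to 1 at 40 days (1 without wild-type replicate 4), 2 to 5 at 80 days (4 without wild-type replicate 3, 5 without SOD1G93A replicate 4), 1 to 3 between ages (3 without wild-type 80 days replicate 3), 0 to 5 in wild-type (0 without 40 days replicate 3, 5 without 40 days replicate 4) and 4 to 7 in SOD1G93A. The causes were not tested. Over all probes, the share called ran from 1.17% to 9.25% at 40 days and from 5.15% to 11.3% at 80 days under the other settings. No called probe changed sign. The series matrix was not compared between ages, since its columns have medians of 7.22 to 7.23 at 40 days and 7.12 to 7.13 at 80 days. Signals near background, 4 arrays per group, a single dye orientation and positions shared by a group limit all differences of this size.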
